A study of Mus musculus with 7 samples.

Results

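Promoters of 10 mouse genes of inflammation and NF-κB signalling were followed by DNase-Seq in cultured podocytes, the epithelial cells that wrap the capillaries of the kidney's filter. The genes encode the chemokines and cytokines *Ccl2*, *Cxcl1*, *Cxcl12*, *Il6* and *Csf1*, the adhesion molecule *Icam1*, the NF-κB subunits *Nfkb1* and *Rela*, and the inhibitors *Nfkbia* and *Tnfaip3*. They were chosen by name for these roles, with earlier results of these data known. A peak was assigned to a gene when it overlapped the 500 nt on either side of any protein-coding transcription start site (TSS) of that gene in GENCODE vM21, on build GRCm38. They are 10 of the 21866 protein-coding genes annotated, of which 21835, the 10 included, had such a peak in each of 3 lists.

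The podocytes, conditionally immortalised and then differentiated, were deprived of serum to arrest their growth and held for 36 h in 1 of 3 conditions. NG cells had 5 mM glucose, HG+NT cells 25 mM glucose and 50 nM non-targeting mimic, and HG+miR-93 cells 25 mM glucose and 50 nM of a mimic of the microRNA miR-93. Each condition had 2 replicates, and 1 genomic DNA input served all of them. HG+NT over NG asks what high glucose does to accessible chromatin, and HG+miR-93 over HG+NT what the microRNA does under high glucose. No mimic is stated for NG, so high glucose and transfection cannot be told apart in HG+NT over NG. The authors deposited 1 list of peaks per condition in which the replicates are pooled, so each promoter has a single value per condition, without a spread over replicates, and conditions were not compared by a test.

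In podocytes and other cells NF-κB is a dimer of Rel-family proteins that inhibitor proteins hold in the cytoplasm. Signals from cytokine and pattern-recognition receptors activate a kinase complex that marks the inhibitor for destruction, and the freed dimer enters the nucleus and binds promoters and enhancers. Its targets include chemokines, cytokines and adhesion molecules that bring leukocytes to injured kidney tissue, and also its own inhibitors, which end the response.

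The level given for a promoter is its pileup, the number of DNaseI fragments over the summit of its strongest peak, brought to the depth of the input. Fragments were recovered from each peak's deposited fold and p. At all summits listed, the median was 6 fragments in NG, 10 under HG+NT and 12 under HG+miR-93, and the depths were 2.24, 3.85 and 5.15 times that of the input. The 10 promoters rested on 9 to 30 fragments in NG, 14 to 37 under HG+NT and 19 to 53 under HG+miR-93. All intervals are 95% counting intervals that take the summit as fixed beforehand, and they compare pooled libraries, not conditions. They leave out that the strongest peak and its summit were picked in each list, so they are not exact for such maxima. The part of this choice in the ratios was not tested. A promoter counted as higher or lower in a comparison where the 95% interval of the ratio of its pileups lay on a single side of 1. The depths differ between the conditions, and their part in the ratios was not tested.

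Promoter levels of the 10 genes spanned 4.02 to 13.4 in NG, 3.64 to 9.61 under HG+NT and 3.69 to 10.3 under HG+miR-93. Their medians were 6.70, 7.14 and 5.44, against medians of 5.81, 4.93 and 4.86 over all 21835 promoters. As percentiles within each list, the median of the 10 was 58.3 in NG, 74.3 under HG+NT and 58.6 under HG+miR-93. The inhibitor *Nfkbia*, the subunit *Rela* and the inhibitor *Tnfaip3* had the highest levels of the 10 in NG and under HG+miR-93. *Rela* and *Nfkbia* led under HG+NT as well, where *Csf1* came next. Neighbours in the order of levels had overlapping intervals in every list. The ends of the order were apart, since the interval of *Nfkbia* in NG began at 9.04 and that of *Ccl2* ended at 7.63. Only *Rela* in NG, among the 10 genes in the 3 lists, had a deposited −log10 q above 0, of 0.731. Of all promoter peaks taken, 1.83% in NG, 2.21% under HG+NT and 0.110% under HG+miR-93 had one.

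Pileup is not divided by the input, and ranks by the deposited fold, which is set over the input, differ for several genes. By the highest fold of each promoter, *Cxcl1* stood at percentiles 93.5, 98.3 and 90.4 in NG, then HG+NT, then HG+miR-93, and *Rela* at 99.6, 73.5 and 85.6. The inhibitors ranked lower by fold than by pileup in each list, *Nfkbia* at 79.2, 33.4 and 33.2 and *Tnfaip3* at 28.7, 64.9 and 22.8.

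**Figure D1:**
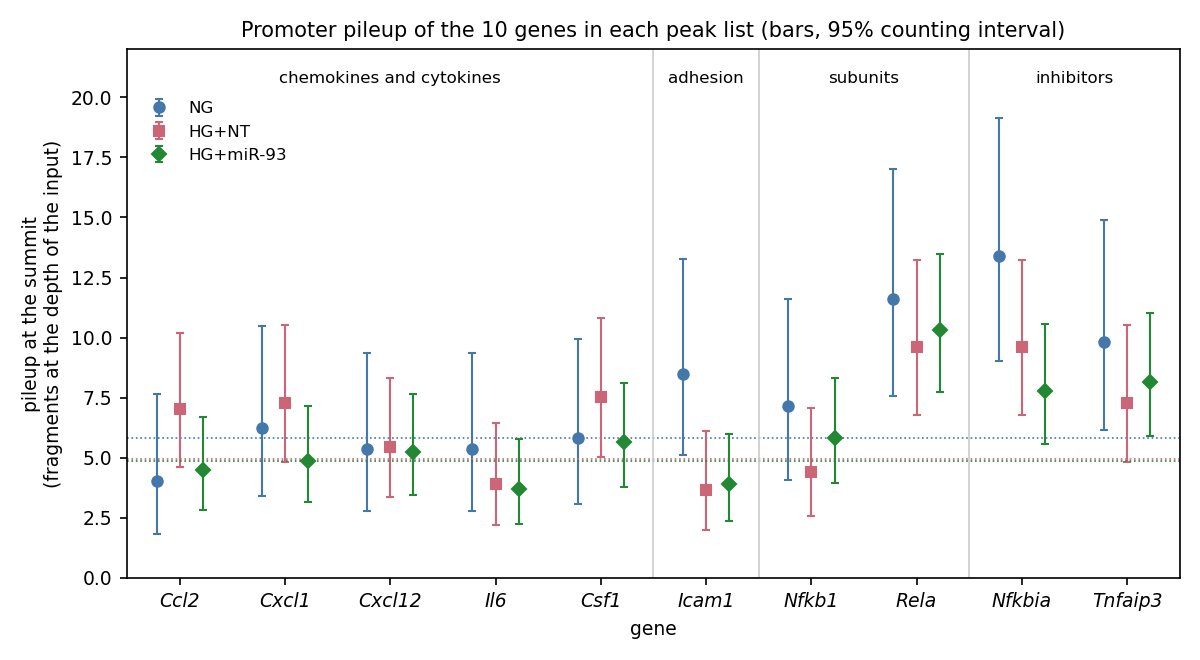
Pileup at the summit of the promoter peak (vertical axis, fragments at the depth of the input) of the 10 genes per condition (NG, HG+NT, HG+miR-93), with 95% counting intervals as bars and the median of all promoters of each list as dotted lines. *Rela* stands at 11.6, 9.61 and 10.3, above the medians of 5.81, 4.93 and 4.86, while *Icam1* stands at 8.49 in NG and at 3.64 and 3.89 in the other lists.

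*Ccl2* (chr11:82035571-82037453, plus strand) encodes a chemokine that attracts monocytes. Its promoter peak had a pileup of 4.02 (95% interval 1.84 to 7.63) in NG, 7.01 (4.62 to 10.2) under HG+NT and 4.47 (2.83 to 6.71) under HG+miR-93. It was the promoter with the lowest level of the 10 in NG, at percentile 31.2, and stood at percentile 73.3 under HG+NT and 40.5 under HG+miR-93. The HG+NT over NG ratio of 1.74 was the highest of the 10, with an interval of 0.796 to 4.22, and HG+miR-93 over HG+NT was 0.637 (0.349 to 1.15). Both intervals include 1, so neither difference was detectable at this depth. The place of the summit differed as well, and was −5954 nt from the TSS in NG, in a peak 9302 bp wide, then −34 nt under HG+NT, just before the gene, and 60 nt under HG+miR-93, in an untranslated exon.

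*Cxcl1* (chr5:90891241-90893115, plus strand) encodes a chemokine for neutrophils. Its levels were 6.25 (3.42 to 10.5) in NG, 7.27 (4.83 to 10.5) under HG+NT and 4.86 (3.14 to 7.17) under HG+miR-93, and the 3 intervals overlap. Like *Ccl2* it had its highest value under HG+NT, with ratios of 1.16 over NG and 0.668 for HG+miR-93 over HG+NT, neither called. Its summits lay within 300 nt of the TSS in each list, before it in NG (−235 nt), in a coding exon (289 nt) under HG+NT and in an intron (163 nt) under HG+miR-93.

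*Cxcl12* (chr6:117168535-117181367, plus strand) encodes a chemokine that acts on stem cells, lymphocytes and, in the glomerulus, endothelial cells. Pileups were 5.36 in NG, 5.45 under HG+NT and 5.25 under HG+miR-93, the narrowest spread of the 10 genes, though not at the same base. Summits were less even, at −524, 460 and −1524 nt from the nearest of its 3 TSSs. Near the HG+miR-93 summit, NG had a separate peak at −1514 nt with a pileup of 8.93 (5.46 to 13.8) that does not reach the promoter window and was not taken, so the even values depend on where peak borders lie. All 3 comparisons gave ratios near 1, of 1.02, 0.962 and 0.979, yet the widest of their intervals, 0.478 to 2.27 in HG+NT over NG, leaves room for a change of 2-fold.

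*Il6* (chr5:30013114-30019981, plus strand) encodes an interleukin of the acute phase. It stood at 5.36 (2.77 to 9.36) in NG, 3.90 (2.18 to 6.42) under HG+NT and 3.69 (2.22 to 5.77) under HG+miR-93, which put it at percentiles 47.8, 29.9 and 25.3. In HG+miR-93 it had the lowest level of the 10, and its deposited fold there was 0.939, so that its pileup, at the depth of the input, was below the local mean of the input. Its peak had the same borders in all 3 lists, chr5:30012282-30014336, and its summits in NG and HG+NT were 13 nt apart, in an intron at 52 and 65 nt. Neither high-glucose list differed detectably from NG, with ratios of 0.727 (0.318 to 1.70) and 0.689 (0.318 to 1.56).

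*Csf1* (chr3:107741048-107760469, minus strand) encodes the growth factor of macrophages. It had 5.81 (3.09 to 9.93) in NG, 7.53 (5.04 to 10.8) under HG+NT and 5.64 (3.77 to 8.09) under HG+miR-93. With *Ccl2*, *Cxcl1* and *Cxcl12* it completes the 4 of 10 genes with a ratio above 1 in HG+NT over NG (1.30), and in each of these 4 genes HG+miR-93 over HG+NT was below 1 (0.748 for *Csf1*). Over the median of all promoters the signs were the same, apart from *Cxcl12* in HG+miR-93 over HG+NT, at 1.01. None of the 8 ratios was called, and the pair of comparisons shares the HG+NT list, so a high value there moves both. *Csf1* has 6 TSSs, and under HG+miR-93 peaks at 2520 and 51 nt from the nearest of them had the same pileup.

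The promoters of *Csf1*, *Il6* and *Cxcl1* are shown because each holds the NF-κB consensus, a motif of 10 bases, close to the RefSeq start of the gene. The bases end just before that start, or 4 bases before it in *Cxcl1*, run 5′ to 3′ on the strand of the gene and are from RefSeq (GRCm38.p6), with the consensus in capitals. They are chr3:107760470-107760629 (minus strand), chr5:30012954-30013113 (plus strand) and chr5:90891085-90891240 (plus strand). In *Cxcl1* the capitals span 2 overlapping matches, 1 on each strand.
Csf1: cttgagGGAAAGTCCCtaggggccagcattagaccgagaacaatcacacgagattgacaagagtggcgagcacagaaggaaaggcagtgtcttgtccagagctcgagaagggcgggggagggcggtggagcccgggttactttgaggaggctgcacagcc
Il6: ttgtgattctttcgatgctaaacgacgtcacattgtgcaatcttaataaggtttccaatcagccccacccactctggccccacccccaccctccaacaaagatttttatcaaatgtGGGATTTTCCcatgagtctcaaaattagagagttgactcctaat
Cxcl1: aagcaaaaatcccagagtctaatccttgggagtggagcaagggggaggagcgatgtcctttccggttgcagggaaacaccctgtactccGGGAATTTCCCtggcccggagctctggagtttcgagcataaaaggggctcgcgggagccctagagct
Counted from the start, the match begins at −154 in *Csf1*, on the other strand, at −44 in *Il6* and at −71 and −70 in *Cxcl1*. The summits of *Il6* lie beyond the start, and those of *Cxcl1* on either side of it.

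Of the 10 genes, 8 had a promoter of 300 bases in the RefSeq table, 250 before the start and 50 after. These 8 genes have 9 such promoters. Counts below are of genes and shares are of promoters, so they are not in the same unit. The NF-κB consensus was in 5 of the 8 (*Csf1*, *Il6*, *Cxcl1*, *Tnfaip3* and *Nfkbia*), against 4.51% of all 32851 promoters of that length, counting both strands. Only full matches were counted. The *Icam1* promoter holds TGGAAATTCC, which departs from the consensus in its first base and so was not counted. The AP-1 motif TGANTCA was in *Il6* and *Tnfaip3* and in 7.81% of all promoters. TATAAA was in *Icam1*, *Tnfaip3* and *Nfkbia* and in 13.6% of all. GGGCGG was in 6 of the 8, *Il6* and *Cxcl1* excepted, and in 35.7% of all. A match describes these letters and is not evidence of binding.

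*Icam1* (chr9:21015985-21028817, plus strand) encodes the cell-surface ligand to which leukocyte integrins hold. Its pileup was 8.49 (5.11 to 13.3) in NG, from 19 fragments, 3.64 (1.99 to 6.10) under HG+NT, from 14, and 3.89 (2.37 to 6.0) under HG+miR-93, from 20. The NG value is more than 2-fold the others, which are alike, and the NG interval overlaps theirs at its lower end. Its percentile among all promoters was 71.6 in NG, and 25.1 and 28.8 in the others. The ratio was 0.428 (0.199 to 0.901) in HG+NT over NG and 0.458 (0.232 to 0.907) in HG+miR-93 over NG, both called lower, and 1.07 (0.514 to 2.29) in HG+miR-93 over HG+NT. These calls share the NG list, and both end once the ratio is set over the median of all promoters, at 0.479 (0.222 to 1.01) and 0.541 (0.274 to 1.07).

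The *Icam1* promoter is shown because its NG summit lies in a stretch where HG+NT has no peak. This stretch of 77 bases, chr9:21015737-21015813, separates 2 HG+NT peaks and is in capitals within chr9:21015690-21015939 (plus strand, RefSeq, GRCm38.p6), which ends just before the RefSeq start.
Icam1: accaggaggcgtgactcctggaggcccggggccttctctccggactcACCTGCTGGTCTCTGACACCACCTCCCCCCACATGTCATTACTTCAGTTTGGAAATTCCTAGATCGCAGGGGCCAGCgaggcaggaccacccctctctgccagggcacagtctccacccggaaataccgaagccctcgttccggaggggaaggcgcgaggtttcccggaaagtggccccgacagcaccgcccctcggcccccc
The NG summit is −240 nt from the TSS and 8 nt inside the left edge of the stretch. The highest p of any listed peak is 0.90, and with that as the limit of the lists HG+NT can hold at most 7 fragments at this base, a pileup of 1.82. The base was singled out after the values had been seen, for being the NG summit outside any HG+NT peak, so no ratio is given for it. The HG+NT peaks on either side had summits at −1346 nt, with a pileup of 3.38, and at 3325 nt in an intron, with 3.64, and the HG+miR-93 peak covers the stretch with its summit at 143 nt. For the other 9 genes, each promoter summit of a list lay inside a peak of both other lists. The share over all promoters is not given, so the gap at *Icam1* is not shown to be unusual.

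*Nfkb1* (chr3:135584655-135691547, minus strand) encodes the precursor of a DNA-binding subunit that has no activation domain of its own. It has 3 TSSs, over which 6 peaks lay in NG and 5 in each other list. The strongest had 7.15 (4.08 to 11.6) in NG, 4.41 (2.57 to 7.07) under HG+NT and 5.83 (3.93 to 8.32) under HG+miR-93, at percentiles 61.6, 40.2 and 64.8. HG+NT was the lowest of the 3, with ratios of 0.618 (0.294 to 1.31) over NG and 1.32 (0.705 to 2.55) for HG+miR-93 over HG+NT, neither called. With the peak of highest fold in place of highest pileup, HG+NT over NG was called lower, at 0.40, but the HG+NT peak taken is then at another TSS than that of NG. By pileup, all 3 of the strongest peaks lay at the gene's first TSS, with summits at 485, 173 and −46 nt.

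*Rela* (chr19:5637483-5648130, plus strand) encodes the subunit that carries the activation domain of the common NF-κB dimer. It had 11.6 (7.59 to 17.0) in NG, 9.61 (6.77 to 13.2) under HG+NT and 10.3 (7.72 to 13.5) under HG+miR-93, and stayed between percentiles 88.1 and 95. In NG its peak had the highest deposited fold of the 10 promoter peaks, 4.2, and a deposited −log10 p of 5.86. The ratios of 0.827, 1.07 and 0.887 are each within an interval that includes 1. On a log scale the narrowest of these is 0.691 to 1.68, for HG+miR-93 over HG+NT. Its summit lay in an untranslated exon at 204 nt in NG and before the gene at −90 and −165 nt under HG+NT and HG+miR-93.

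*Nfkbia* (chr12:55489410-55492647, minus strand) encodes the inhibitor that holds NF-κB in the cytoplasm and is itself an NF-κB target. It had the highest level of the 10 in NG, 13.4 (9.04 to 19.1), then 9.61 (6.77 to 13.2) under HG+NT and 7.77 (5.55 to 10.6) under HG+miR-93. By pileup the percentiles were 95.6, 88.1 and 84.8, but by the deposited fold 79.2, 33.4 and 33.2, so that under both mimics it ranked below the median promoter once set over the input. HG+NT over NG was 0.717 (0.431 to 1.2) and HG+miR-93 over HG+NT 0.809 (0.504 to 1.30), neither called. HG+miR-93 over NG was 0.580 (0.352 to 0.965) and called lower. Set over the median of all promoters it was 0.686 (0.417 to 1.14) and not called. The summits in NG and HG+miR-93 were 2 nt apart, in a coding exon at 187 and 189 nt, and *Nfkbia* is the sole gene of the 10 whose summits lay within 150 nt of each other in every pair of lists. Its RefSeq promoter is shown for the NF-κB consensus (capitals, starting at −29 on the other strand), as chr12:55492648-55492807 (minus strand, GRCm38.p6).
Nfkbia: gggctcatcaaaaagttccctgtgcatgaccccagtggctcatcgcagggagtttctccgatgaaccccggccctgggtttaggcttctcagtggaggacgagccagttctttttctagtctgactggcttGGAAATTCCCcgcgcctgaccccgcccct

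*Tnfaip3* (chr10:19000910-19015657, minus strand) encodes an enzyme that edits ubiquitin chains and shuts off signalling to NF-κB, and it is a target as well. Its levels were 9.83 (6.16 to 14.9) in NG, 7.27 (4.83 to 10.5) under HG+NT and 8.16 (5.88 to 11.0) under HG+miR-93, with overlapping intervals. By pileup it stood at percentiles 81.1, 75.3 and 87.3, and no comparison was called, with ratios of 0.740, 1.12 and 0.831. The NG and HG+miR-93 summits were 19 nt apart, at −43 and −24 nt from the same TSS. The HG+NT summit was at −371 nt from another of the 4 TSSs of the gene, and 500 nt from the NG summit. Its RefSeq promoter holds the NF-κB consensus at −125 and at −12, and TGANTCA at −136.

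**Figure D2:**
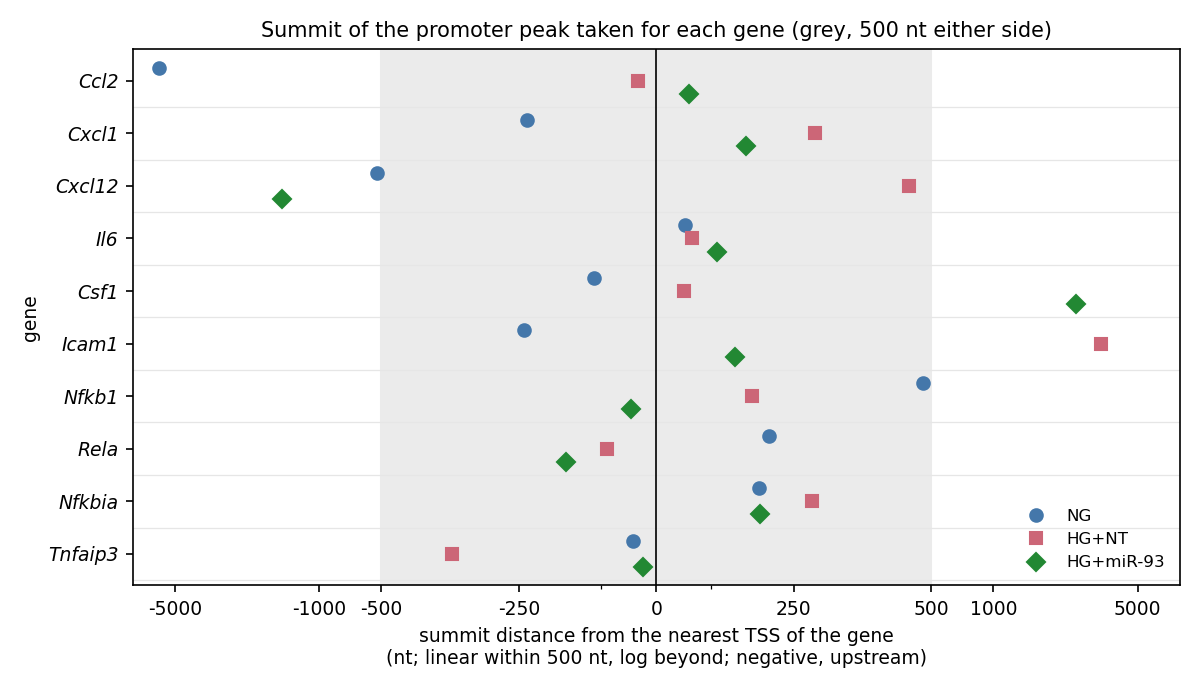
Distance (horizontal axis, nt; linear within 500 nt and logarithmic beyond) from the nearest TSS of the gene to the summit of the promoter peak taken, for the 10 genes in each of the 3 lists. Summits of *Nfkbia* lie at 187, 283 and 189 nt, while those of *Ccl2* lie at −5954, −34 and 60 nt.

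The summit lay within 500 nt of a TSS in 8 of the 10 genes in NG, 9 under HG+NT and 8 under HG+miR-93, against 64.3%, 62.1% and 62.0% of all genes. Summits of a pair of lists were within 150 nt of each other in 2 of 10 genes for NG and HG+NT (*Il6* and *Nfkbia*), against 31.1% of all genes. They were so in 4 of 10 for HG+NT and HG+miR-93 (*Ccl2*, *Cxcl1*, *Rela* and *Nfkbia*), against 36.4%, and in 2 of 10 for NG and HG+miR-93 (*Nfkbia* and *Tnfaip3*), against 30.5%. The tie in *Csf1* under HG+miR-93 was settled by the higher deposited −log10 p, and the other peak would add *Csf1* to the genes with a summit within 500 nt and to those that share it with HG+NT. Where summits differ, the ratio compares the strongest place of a promoter in each list and not the same base.

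In HG+NT over NG, 0 of the 10 genes were higher, against 0.820% of all promoters, and 1 was lower (*Icam1*), against 3.13%. In HG+miR-93 over HG+NT, 0 were higher, against 0.243%, and 0 lower, against 2.01%. In HG+miR-93 over NG, 0 were higher, against 0.325%, and 2 lower (*Icam1* and *Nfkbia*), against 6.11%. With 10 genes these counts are too small to set the group apart from all promoters. The median ratios of the 10 were 0.784, 0.955 and 0.823, and those of all promoters 0.894, 0.953 and 0.846. The latter are −0.16, −0.07 and −0.24 on the log2 scale, but not every chromosome is below 1. In HG+NT over NG the medians of chromosomes 15, 8, 19 and X were 1.14, 1.08, 1.06 and 1.05, and that of Y was 0.332. In HG+miR-93 over NG those of 15 and X were 1.07 and 1.03, and in HG+miR-93 over HG+NT that of Y alone was above 1, at 1.12. Over the median of all promoters, the share of higher promoters among all called went from 20.7% to 48.2% in HG+NT over NG, from 10.8% to 19.2% in HG+miR-93 over HG+NT and from 5.05% to 32.0% in HG+miR-93 over NG. None of the 10 genes was called over that median or over the median of its chromosome.

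**Figure D3:**
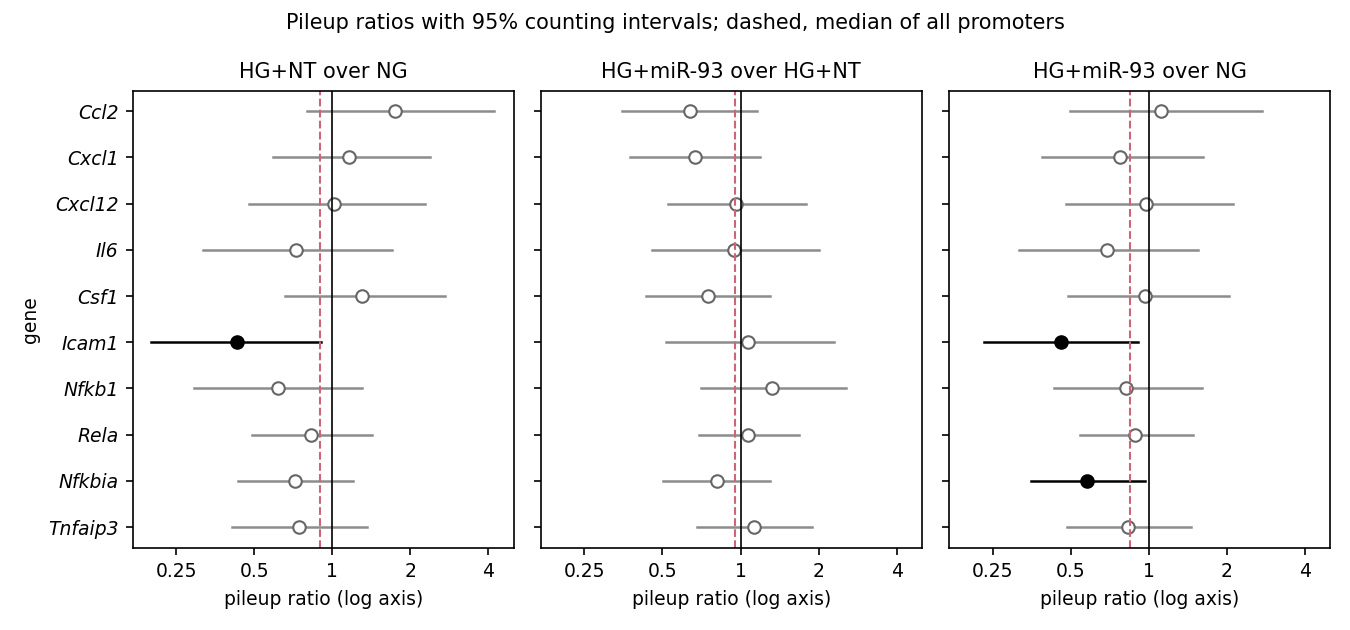
Ratio of promoter pileups (horizontal axis, logarithmic) of the 10 genes in the 3 comparisons, with 95% counting intervals, filled points where the interval lies on a single side of 1 and the median of all promoters dashed. *Icam1* is filled at 0.428 and 0.458 and *Nfkbia* at 0.580, and over the dashed medians none of the 3 would be called.

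Around the 10 genes, 7 lists hold 71 other genes of the pathway, also chosen with earlier results of these data known. In HG+NT over NG, 1 of the 71 was higher (1.41%), against 0.820% of all promoters, and 1 lower (1.41%), against 3.13%. In HG+miR-93 over HG+NT, 0 were higher, against 0.243%, and 4 lower (5.63%), against 2.01%. In HG+miR-93 over NG, 0 were higher, against 0.325%, and 7 lower (9.86%), against 6.11%. Over the median of all promoters, the pathway genes called lower in the latter 2 comparisons were 2 and 1, against 1.35% and 2.03% of all promoters. The median ratios of the 71 were 0.945, 0.898 and 0.835.

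The list of the other NF-κB subunits, *Nfkb2*, *Relb* and *Rel*, had the highest median percentiles among the 7 lists. These were 90.1 in NG, 98.8 under HG+NT and 96.9 under HG+miR-93. *Relb* encodes the partner subunit of the branch of NF-κB that runs through *Nfkb2*. Its pileup was 11.6 (7.59 to 17.0) in NG, 23.1 (18.6 to 28.4) under HG+NT and 13.2 (10.3 to 16.8) under HG+miR-93, and the HG+NT interval is above both others. The ratio was 1.99 (1.27 to 3.21) in HG+NT over NG, called higher, and 0.572 (0.411 to 0.793) in HG+miR-93 over HG+NT, called lower. Both calls held in 9 of 9 alternatives, centring on all promoters included. HG+miR-93 over NG was 1.14 (0.715 to 1.86), so no difference from NG was detectable there. Summits lay at −396, −292 and 336 nt.

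*Nfkb2* encodes the precursor that *Relb* pairs with. It had 12.5 in NG, 17.7 under HG+NT and 11.5 under HG+miR-93, and like *Relb* was highest under HG+NT. HG+miR-93 over HG+NT was 0.649 (0.45 to 0.934), called lower, and HG+NT over NG was 1.41 (0.897 to 2.28), not called. Over the median of all promoters HG+NT over NG was called higher at 1.58, but not over the median of chromosome 19, which at 1.06 is above that of all promoters. *Rel*, which encodes a subunit known from lymphocytes, had 10.7, 11.9 and 8.55 and no call. All 3 of these subunits had ratios above 1 in HG+NT over NG and below 1 in HG+miR-93 over HG+NT, 2 comparisons that share the HG+NT list, while *Nfkb1* and *Rela* had the opposite pair of signs. Over the median of all promoters, the signs of these 5 genes are the same. Whether the subunits differ in their response was not tested.

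Among the other inhibitors and feedback genes, *Otulin*, which encodes an enzyme that removes linear ubiquitin chains, had 9.83 in NG, 12.7 under HG+NT and 7.97 under HG+miR-93. HG+miR-93 over HG+NT was 0.626 (0.403 to 0.968), called lower, though not over the median of all promoters. With the peak of highest fold, HG+NT over NG was called higher for *Otulin*, at 2.19, in place of 1.30 and no call. *Nfkbiz* and *Bcl3*, which encode nuclear proteins of the inhibitor family, and *Tnip2*, which encodes a partner of the *Tnfaip3* product, were called lower in HG+miR-93 over NG, at 0.604, 0.518 and 0.544. Levels of *Nfkbiz* were 13.8, 10.9 and 8.36, those of *Bcl3* 9.38, 6.49 and 4.86, and those of *Tnip2* 10.7, 8.05 and 5.83, in the order NG, HG+NT, HG+miR-93. In each of the 3 genes, as in *Nfkbia*, HG+NT had the middle value, and the call ended over the median of all promoters. The 3 genes are named for that call, so this order is no separate result. The medians of all promoters, 5.81, 4.93 and 4.86, have it too. With the peak of highest fold, *Bcl3* at 0.907 and *Nfkbiz* at 0.814 were not called either, and *Nfkbiz* had 1.24 in HG+miR-93 over HG+NT, so the middle place of HG+NT did not hold there.

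*Traf2* encodes an adaptor between tumour necrosis factor receptors and the kinases. Of the 16 kinases and adaptors it was the one called, with 13.4 (9.04 to 19.1) in NG, 8.83 (6.11 to 12.3) under HG+NT and 6.02 (4.09 to 8.55) under HG+miR-93. The NG interval is above that of HG+miR-93, and HG+miR-93 over NG was 0.45 (0.263 to 0.769), called lower in 9 of 9 alternatives. Only ratios over a median moved the value, to 0.531 over that of all promoters. Its summits are alike, at −78, −80 and −92 nt. *Tlr4*, the receptor for bacterial lipopolysaccharide, had 4.47, 6.75 and 3.50 and was called lower in HG+miR-93 over HG+NT at 0.518 (0.268 to 0.982), a call that ended over the median of all promoters.

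Among other ligands and targets, *Il18*, which encodes an interleukin that the inflammasome releases, had 8.49 in NG, 3.38 under HG+NT and 3.89 under HG+miR-93. HG+NT over NG was 0.398 (0.181 to 0.849), called lower, also over the median of all promoters but not over that of its chromosome. For HG+miR-93 its deposited values fit more than 1 number of fragments, and the call in HG+miR-93 over NG, lower at 0.458, becomes higher with the largest number and ends over the median of all promoters. With the largest number, HG+miR-93 over HG+NT goes from 1.15 and no call to 27.0, called higher. *Cxcl5*, a chemokine gene, had 7.59, 4.67 and 3.50, and *Irf1*, which encodes a transcription factor of the interferon response, had 10.3, 6.75 and 5.44. Both were called lower in HG+miR-93 over NG, at 0.461 and 0.530, and over the median of all promoters were not. No gene was called among the 9 receptors for the products of the 10 genes.

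**Figure D4:**
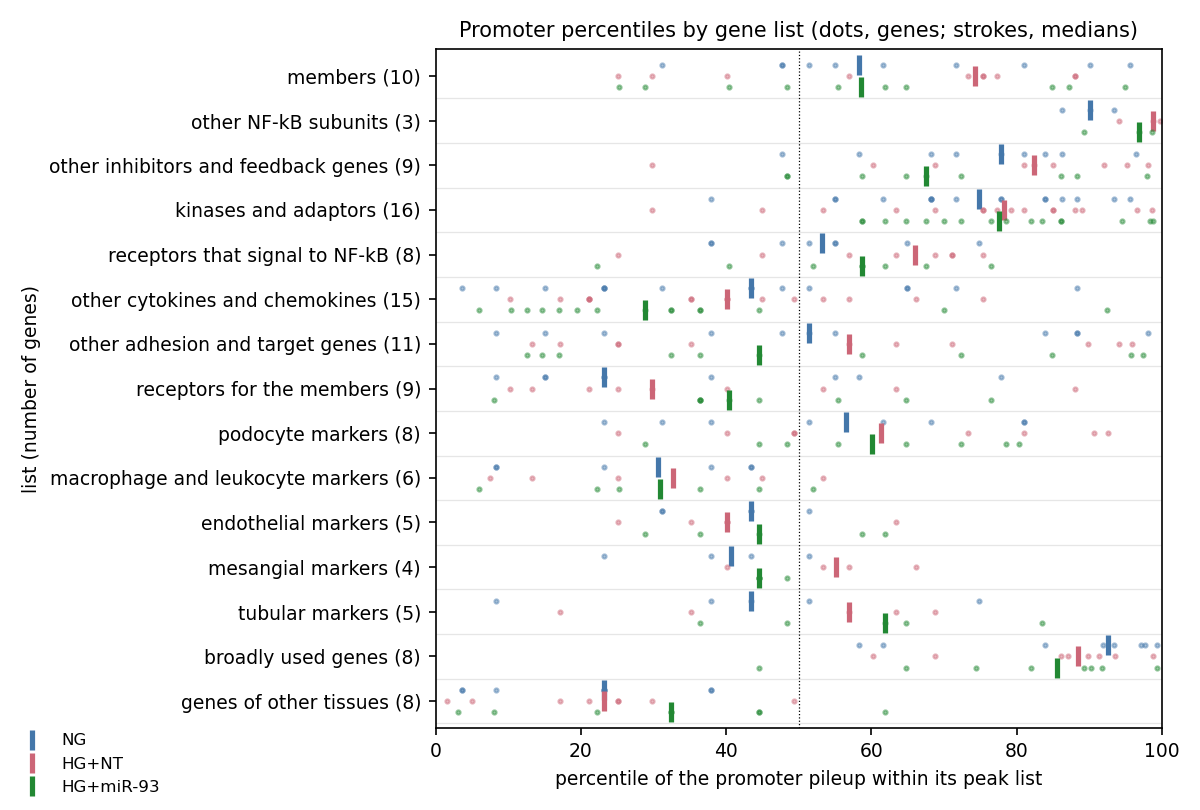
Percentile of the promoter pileup within each list (horizontal axis) for the genes of each list (dots) with the medians (strokes), coloured by condition (NG, HG+NT, HG+miR-93). The other NF-κB subunits have medians of 90.1, 98.8 and 96.9, the 10 genes 58.3, 74.3 and 58.6, and the genes of other tissues 23.2, 23.1 and 32.4.

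Median percentiles by pileup of the other lists are given for NG, then HG+NT, then HG+miR-93. The inhibitors and feedback genes stood at 77.9, 82.4 and 67.5, and the kinases and adaptors at 74.8, 78.3 and 77.5. Receptors that signal to NF-κB stood at 53.2, 66.1 and 58.7, and other adhesion and target genes at 51.5, 57.0 and 44.5. The other cytokines and chemokines stood at 43.4, 40.2 and 28.8 and the receptors for the products of the 10 genes at 23.2, 29.9 and 40.5. The percentiles of the genes of the lists in this paragraph overlap. Those of the other NF-κB subunits do not overlap with either list of receptors. In NG the lowest subunit was at 86.3 (*Rel*), and the highest receptors were at 74.8 (*Ltbr*) and 77.9 (*Il6st*). Differences between the lists were not tested.

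The label of the cells was checked on 8 podocyte markers, whose median percentiles were 56.5, 61.3 and 60.1. *Foxc2*, a transcription factor gene of podocytes, was highest of them, with a mean percentile of 84.7. *Tcf21*, another such gene, was lowest with 30.6, at pileups of 4.47, 3.64 and 3.89. *Nphs1*, which encodes the slit-diaphragm protein nephrin, had 4.02, 4.41 and 4.66. The promoter of this defining gene was thus below the median promoter in every list, and promoter accessibility alone does not mark these cells as podocytes. Of the 6 macrophage and leukocyte markers, with medians of 30.6, 32.7 and 30.8, *Cd68* was highest with a mean percentile of 49.6. *Ptprc*, which marks all leukocytes, was lowest with 7.24, at pileups of 2.68, 2.34 and 2.14.

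Marker lists of other kidney cell types had medians between 40.2 and 61.9. The 5 endothelial markers had medians of 43.4, 40.2 and 44.5, from *Cdh5* (mean percentile 58.9) to *Tie1* (30.9). The 4 mesangial markers had 40.7, 55.2 and 44.5, from *Des* (49.6) to *Pdgfrb* (44.6), and the 5 tubular markers 43.4, 57.0 and 61.9, from *Lrp2* (67.7) to *Umod* (36.3). As bounds of the scale, 8 broadly used genes had 92.6, 88.5 and 85.6, from *Eef2* (98.6) to *Hprt* (57.2), and 8 genes of other tissues 23.2, 23.1 and 32.4, from *Ckm* (49.7) to *Crygd* (5.56). Of the 8 broadly used genes, 2 were called lower in HG+miR-93 over NG, against 6.11% of all promoters, *Actb* at 0.538 and *Ppia* at 0.462, named after their values had been seen. Over the median of all promoters the call of *Ppia* held and that of *Actb* ended. No gene of the podocyte, leukocyte, endothelial, mesangial and tubular marker lists was called in any of the 3 comparisons, and their part in the values of the 10 genes was not tested.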

How the data were processed

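DNase-Seq was measured in 6 libraries of 3 conditions and 1 genomic DNA input. Per the authors' methods, reads were trimmed and aligned by Bowtie to mm10, duplicates were filtered, and MACS2 called peaks on a condition's pooled replicates with the input as control. The settings were those recommended for DNase-seq, whose values, like the MACS2 version, are not stated. The deposited fold is a ratio, at the depth of the input: summit fragments plus 1 over the input's local mean plus 1. The deposited −log10 p and −log10 q are those of a Poisson model of the same numbers.

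The lists hold 1036304 (NG), 846027 (HG+NT) and 900109 (HG+miR-93) peaks. Fragments and the local mean of the input were solved for each peak from its fold and p, with a single solution for 99.3%, 97.5% and 98.9% of peaks and for every promoter peak taken in the 10 genes. Where several existed, the fewest fragments were taken. The recovered local mean was equal, within 0.011 fragments, in 100% of 3127, 3295 and 3118 summits that a pair of lists shares. Pileup is fragments times the list's scaling factor. Per gene and list, the overlapping peak (at least 1 bp) with the highest pileup was taken. Ratios have Clopper-Pearson 95% intervals, which take the summit as fixed, turned from shares of fragments into ratios. The 10 genes and the lists of other genes were chosen with earlier results of these data known. Genes named are the 10, the pathway genes called in any of the 3 comparisons, and the highest and lowest gene by mean percentile of each marker, broadly used and other-tissue list; *Rel*, *Nphs1*, *Actb* and *Ppia* were added after their values had been seen. Of the podocyte markers, 8 were analysed. Alternatives were the peak of highest fold, summits within 500 nt alone, promoters of 1000 nt either side, an overlap of 150 bp, a −log10 p of at least 1, ratios over the median of all promoters or of the chromosome, the most fragments where several solutions exist, 99% intervals, ranking by fold, and summits within 300 nt. The recovery of fragments and the calls were tested on simulated data, without a choice of peak or summit, and the overlaps against a direct count. The software was scipy 1.17.1, pandas 2.3.3, numpy 2.4.6 and matplotlib 3.10.9 on Python 3.11.15.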

Additional observations from a re-analysis of the deposited data

How the results depend on the processing

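No paired analysis was possible because the lists pool the replicates, for the same reason leaving out a replicate was not possible, and no result comes from a test. With 9 to 53 fragments at a promoter summit, only ratios far from 1 can be called. The intervals leave out the spread between replicates and the choice of peak and summit. A count was taken as kept within 1.5 times its main value, and a ratio within its main 95% interval, or for a median that of the summed fragments. These limits are wide, and a ratio kept by them can lose or gain its call. By them 121 values of counts and medians and 516 ratios of single genes kept, while 41 and 2 moved and 1 ratio reversed. The limits do not cover the median percentiles of the 10 genes. Ranked by fold, these percentiles are among the 41 that moved, although in NG the change was from 58.3 to 56.2. Of the 516, 63 are from the 99% intervals, which leave each ratio as it is, and there 13 of 16 calls were lost. Under the other alternatives 25 of 116 calls were lost, 1 turned to the opposite and 4 were gained. The cause was not tested where none is given.

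In parentheses is the share of all promoters called the same way under the same setting, which moves as well. Of the 10 genes, those lower in HG+NT over NG were 2 with the peak of highest fold (5.3%), and 0 with summits within 500 nt alone (4.12%), with a −log10 p of at least 1 (3.38%), over the median of all promoters (1.69%), over that of the chromosome (1.09%) and with 99% intervals (1.19%). Those lower in HG+miR-93 over NG were 1 with summits within 500 nt alone (9.55%), and 0 with a −log10 p of at least 1 (8.03%), over the medians of all promoters (2.03%) and of the chromosome (1.52%) and with 99% intervals (1.86%). Fewer genes enter with a −log10 p of at least 1 (4 of the 10, 38 pathway genes) or with summits within 500 nt alone (7 and 45). With that −log10 p the median ratio of the 4 was 1.42, 0.708 and 0.999 in HG+NT over NG, HG+miR-93 over HG+NT and HG+miR-93 over NG. Ranked by fold, the median percentile of the 10 was 56.2 in NG, 65.9 under HG+NT and 48.6 under HG+miR-93. Within 300 nt, 4 of them shared a summit in NG and HG+NT. The share of all genes within 300 nt is not given, and cannot be below the 31.1% within 150 nt.

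Of the 71 pathway genes, those higher in HG+NT over NG were 3 with the peak of highest fold (1.69%), 2 with a −log10 p of at least 1 (1.66%) and 3 over the median of all promoters (1.57%). Those lower were 4 with the peak of highest fold (5.3%) and 0 over the chromosome's median (1.09%) and with 99% intervals (1.19%). In HG+miR-93 over HG+NT, 1 was higher with the peak of highest fold (1.13%) and 2 with the most fragments (2.39%), and those lower were 2 over the median of all promoters (1.35%), 2 over the chromosome's (1.27%) and 1 with 99% intervals (0.609%). Over NG, 2 were higher for HG+miR-93 with the most fragments (2.49%), and those lower were 3 with a −log10 p of at least 1 (8.03%), and 1 over the median of all promoters (2.03%), over the chromosome's (1.52%) and with 99% intervals (1.86%). *Il18* reversed there, to 10.7, with the most fragments. Their median ratio in HG+NT over NG was 1.06 with a −log10 p of at least 1, 1.06 over the median of all promoters and 1.08 over the chromosome's. It was 0.838 in HG+miR-93 over HG+NT with summits within 500 nt alone and 0.960 over the chromosome's median. It was 0.987 and 0.984 in HG+miR-93 over NG over the medians of all promoters and of the chromosome.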

Other observations

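For each of the 10 genes, the strongest peak within 10000 nt of the gene and with its summit outside the promoter window was taken. In some cases, such as *Csf1* and *Cxcl12* under HG+miR-93, this is the wide peak that also reaches the promoter and was taken there. Downstream of *Icam1*, the adhesion gene, NG had 7.15 at 15182 nt, HG+NT 5.97 at 15328 nt and HG+miR-93 5.64 at 16176 nt. Near the end of *Rela*, the subunit gene, NG had 8.49 at 11054 nt, HG+NT 7.27 at 11110 nt and HG+miR-93 5.64 at 9338 nt, in a coding exon. The regulator genes *Nfkbia* and *Tnfaip3* had outside peaks below their promoters in each list, from 6.25 in NG to 4.08 under HG+miR-93 for *Nfkbia* and from 5.36 to 4.08 for *Tnfaip3*. These peaks were not compared by ratio.

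Across all 21835 promoters, Spearman's rho of pileup was 0.827 between NG and HG+NT, 0.904 between HG+NT and HG+miR-93 and 0.823 between NG and HG+miR-93. These are across genes, which are not independent replicates, and the lists share the input.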
